A study of Caenorhabditis elegans with 34 samples.

Results

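The 200 rows described here are genes whose transcripts were enriched in sorted intestinal cells of larvae of the nematode Caenorhabditis elegans at both larval stages examined, and had higher levels there than in sorted intestinal cells of embryos. They were chosen from 16762 rows of the deposited normalized counts, which are raw counts times 1 constant per library and are not divided by gene length. Enrichment was the log2 ratio of the mean in cells positive for green fluorescent protein (GFP) to the mean in GFP-negative cells, with 10 added to each mean. An enrichment of at least 2, or 4-fold, in both first-stage (L1) and third-stage (L3) larvae was met by 1441 rows. Of these, 1089 had a mean under 50 normalized counts in embryo GFP-negative cells, and 594 also had L1 and L3 GFP-positive means within 3-fold of each other. The 200 with the largest ratio of the smaller larval GFP-positive mean to the embryo GFP-positive mean, again with 10 added to each, were taken. They are called the larval intestine rows below.

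The intestine of C. elegans is a tube of epithelial cells derived from a single early embryonic blastomere. It digests food, stores fat, makes yolk in the adult and meets ingested microbes, and the GATA transcription factor ELT-2 is the main regulator of its genes after the tissue is specified. Embryos live on maternal stores, while larvae feed, so the hatched animal is the first to use the intestine for digestion.

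All libraries came from strain JM149, which carries the transgene caIs71, with GFP fused to a histone (HIS-2B) under the elt-2 promoter and the dominant marker rol-6(su1006). GFP-positive therefore means a cell in which the elt-2 promoter was active, and every group, controls included, carries the transgene. At each of 3 stages (mixed embryo, L1 and L3) 4 fractions were profiled by polyadenylated RNA sequencing. They were 300000 sorted GFP-positive cells, 1000000 sorted GFP-negative cells, unsorted dissociated cells from 70 µl of suspension, and whole animals from 10 µl of packed pellet. Embryos were dissociated with chitinase for 20 min, pronase E for 5 min and passage through a syringe needle. Larvae were softened in SDS-DTT for 2 min, digested in pronase E for 30 min and broken up with a dounce pestle. Whole animals had none of these steps. In dissociated and sorted cells, a difference between embryo and larva cannot be told apart from a difference of protocol.

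Columns for 30 libraries were analysed, with 2 libraries in each L1 group, in embryo whole animals and in embryo unsorted cells, and 3 in every other group. The labels call them biological replicates but do not say whether cultures were separate, so p-values measure the spread between these libraries. Totals ran from 10994387 to 49400873 counts, and no pair of replicates agreed within sampling noise (lowest chi-square per degree of freedom 34.7). A HiSeq X-ten read all L1 replicate 1 libraries and another model all the rest, so within L1 sequencer and replicate cannot be told apart. The 2 whole L1 libraries stand apart from each other for these rows. Replicate 1 was the higher for 173 of the 200 larval intestine rows, with a median log2 ratio of 1.22, against 0.09 over all rows. The files pair no row with a gene name. Roles of single members and a check of the labelled tissue against its markers can therefore not be given, and a single row is called by its position number.

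The values that chose the rows are given as a description, without a test. Normalized counts of the median row were 35.9 in GFP-positive cells of embryos, 1662 in those of L1 larvae and 1054 in those of L3 larvae. In GFP-negative cells they were 3.56 in embryos, 41.2 in L1 larvae and 32.4 in L3 larvae. Across the 200 rows, log2 enrichment ranged from 2.00 to 7.72 in L1, with a median of 4.56, and from 2.01 to 6.04 in L3, with a median of 4.21. The ratio of larval to embryo GFP-positive means had a median of 13.4 and a maximum of 992. The last row taken had a ratio of 5.32 and the first row left out 5.30, so the lower edge of the group is not a gap.

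Not all of these rows were silent in the embryonic intestine. The mean in embryo GFP-positive cells was under 10 normalized counts for 63 rows, from 10 to 100 for 76 rows and at least 100 for 61 rows. Embryo enrichment, which the rule left free, was already at least 2 on the log2 scale for 81 rows and was below 0 for 37. The group is thus one of rows that were much more abundant in larval than in embryonic intestinal cells. A minority of them had a mean under 10 normalized counts in GFP-positive cells from mixed embryos. In sorted larval cells the L1 mean was the higher one for 153 rows and the L3 mean for 47.

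In single libraries, the median larval intestine row had 26.6 to 44.5 normalized counts in the 3 embryo GFP-positive libraries. It had 1506 and 1337 in the 2 L1 GFP-positive libraries, and 968, 1066 and 831 in the 3 L3 GFP-positive libraries. No larval GFP-positive library overlapped an embryo one in this median. The rows were chosen on the means of these same libraries, so this separation follows from the choice. GFP-negative libraries of larvae still held these transcripts at a low level, with medians of 21.3 and 45.8 in L1 and of 39.8, 27.3 and 25.7 in L3. Whether this is expression in other cells or RNA and cells carried over in the sort was not tested.

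**Figure D1:**
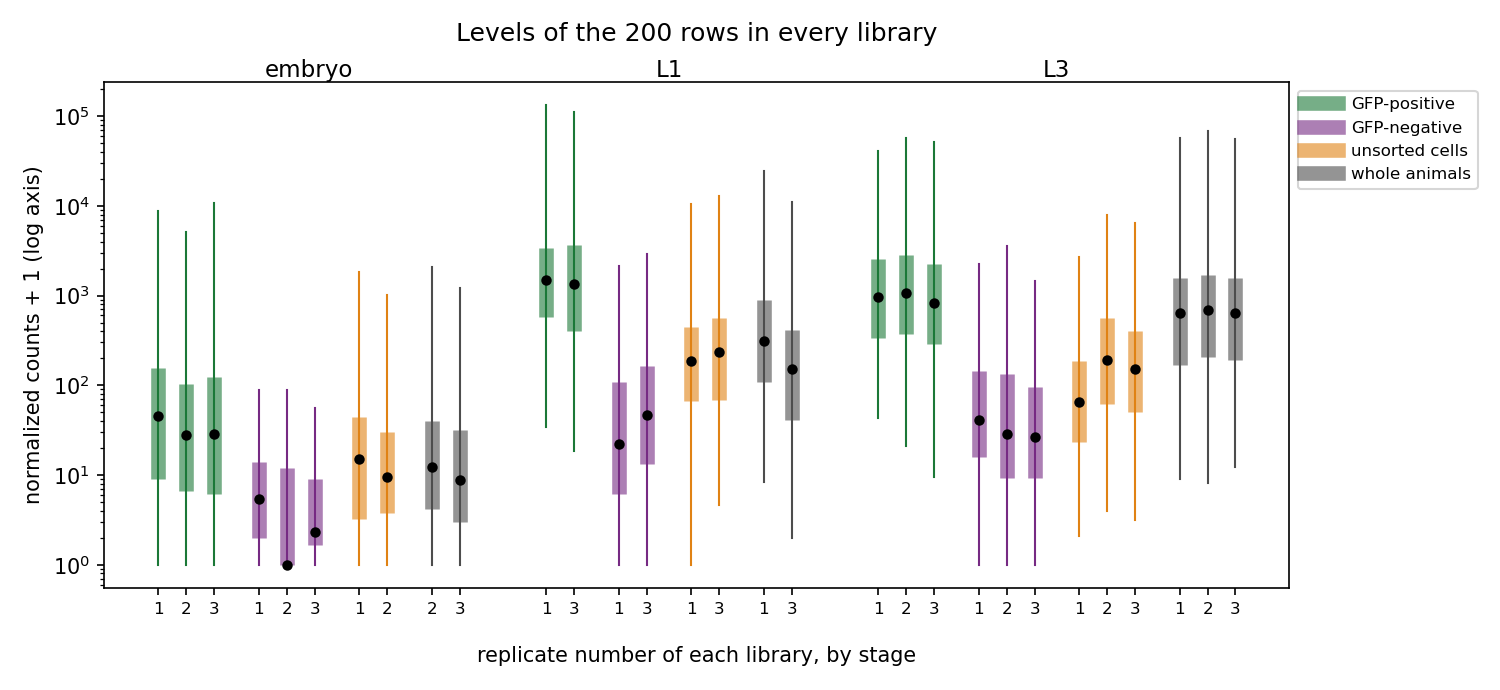
Normalized counts plus 1 (log axis) of the 200 larval intestine rows in each of the 30 libraries, grouped by stage and fraction. Thin lines span the lowest to the highest row, thick bars the lower to the upper quartile and black points the median, which reaches 1506 in L1 GFP-positive replicate 1 and stays under 50 in every embryo library.

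Whole animals and unsorted cells were not used to choose the rows and give a separate view. The median larval intestine row had 11.2 and 7.91 normalized counts in the 2 whole embryo libraries, 312 and 151 in the 2 whole L1 libraries, and 646, 690 and 640 in the 3 whole L3 libraries. The larval and embryo ranges of this median did not overlap. At 10 or more normalized counts there were 86 to 106 of the 200 rows in whole embryos, 183 to 199 in whole L1 larvae and 199 to 200 in whole L3 larvae.

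The share of all counts held by the 200 rows showed the same order. In whole animals it averaged 0.0426 ± 0.0131% in embryos (SD, n = 2), 0.564 ± 0.244% in L1 larvae (SD, n = 2) and 1.78 ± 0.13% in L3 larvae (SD, n = 3). In unsorted cells it averaged 0.0324 ± 0.0039% in embryos (SD, n = 2), 0.475 ± 0.078% in L1 larvae (SD, n = 2) and 0.338 ± 0.162% in L3 larvae (SD, n = 3). L3 thus held the most in whole animals but not in unsorted cells, whose L3 libraries gave 0.154%, 0.456% and 0.404%. Sorted GFP-positive cells held 0.129 ± 0.025% in embryos (SD, n = 3), 2.73 ± 0.46% in L1 larvae (SD, n = 2) and 2.16 ± 0.25% in L3 larvae (SD, n = 3). The share in GFP-positive cells was 4.85 times that of whole animals in L1 and 1.21 times in L3. A few rows held much of these counts. The 10 most abundant made up 43.4 to 49.1% of the group's counts in L1 GFP-positive cells and 52.4 to 54.9% in whole L3 animals.

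**Figure D2:**
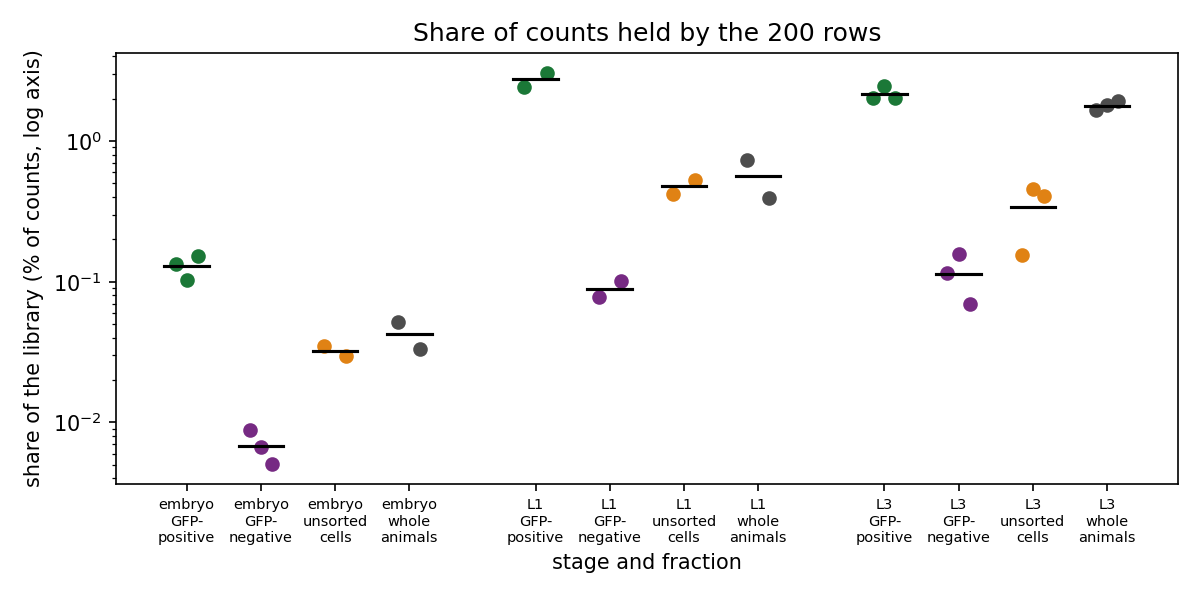
Share of each library's counts held by the 200 larval intestine rows (percent, log axis), by stage and fraction; 1 point per library, with a bar at the group mean. Whole L3 animals, at 1.65 to 1.91%, lie far above unsorted L3 cells, at 0.154 to 0.456%, while the 2 fractions overlap in L1.

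Nearly all larval intestine rows were more abundant in whole larvae than in whole embryos. In whole L3 larvae 195 of 200 rows (97.5%) rose and none fell relative to whole embryos, by edgeR's quasi-likelihood test with an adjusted p under 0.05, against 26.1% of all 16758 tested rows that were called higher and 28.7% called lower. All 200 rows passed the filter on low counts. The median log2 fold change was 5.52, or 45.9-fold, with a median SE of 1.0, against -0.02 over all tested rows. The lower and upper quartiles of the 200 values were 4.41 and 7.18. In whole L1 larvae 176 of 200 (88%) rose and none fell relative to whole embryos, against 26.3% and 26.2% of all rows. The median there was 4.08, or 16.9-fold, with a median SE of 0.97, against 0.19 over all tested rows.

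These 2 comparisons share the whole embryo libraries, so their results are given side by side only. Every whole L3 library lay above every whole embryo library for 198 of the 200 rows, against 39.8% of all tested rows, and every whole L1 library for 192, against 38.9%, in TMM-scaled CPM. With the rows at 0 in both whole embryo libraries, 9 of the 200, set at a floor of 3 counts over that group, the medians were 5.46 in L3 and 4.05 in L1. Of the 200 rows that followed in rank by the same ratio, 173 (86.5%) rose in whole L3 and 140 (70%) in whole L1 larvae. The difference between the 2 sets was not tested.

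Rows already present in the embryonic intestine rose in whole L3 larvae as well, though whole animals give no level per intestinal cell. Of the 61 rows with at least 100 normalized counts in embryo GFP-positive cells, 60 were called higher in whole L3 larvae than in whole embryos, with a median log2 fold change of 4.94. Of the 63 rows with under 10, 62 were called higher, with a median of 6.62. Of all tested rows 26.1% were called higher in this comparison. The embryo level that split the rows also entered the rule, and the sets were not tested against each other. Across the 200 rows, the log2 ratio by which they were ranked and the log2 fold change of whole L3 larvae over whole embryos correlated at r = 0.57 (Spearman's rho 0.54). This is a description across rows, which are not independent replicates and share the scaling of each library.

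**Figure D3:**
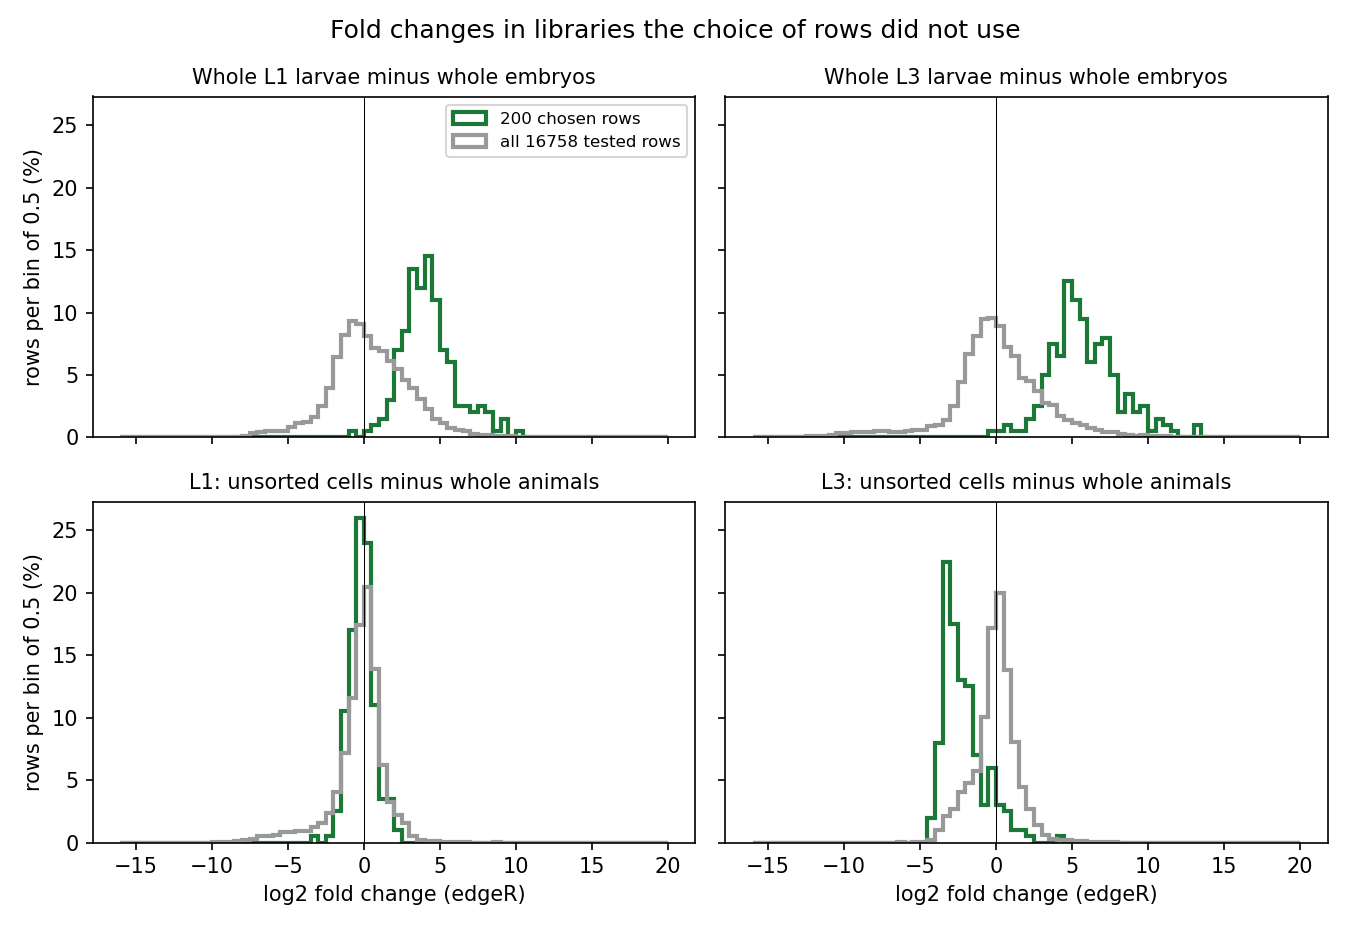
Distribution of edgeR log2 fold changes for the 200 larval intestine rows (green) and for all 16758 tested rows (grey), in percent of rows per bin. Upper panels set whole larvae against whole embryos, where the chosen rows centre on 4.08 in L1 and 5.52 in L3; lower panels set unsorted cells against whole animals, where they centre on -0.12 in L1 and -2.50 in L3.

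Most larval intestine rows were also more abundant in unsorted larval than in unsorted embryo cells, libraries in which stage and dissociation protocol cannot be told apart. In unsorted L1 cells 173 of 200 rows (86.5%) rose and none fell relative to unsorted embryo cells, against 23.4% and 25.9% of all tested rows. The median log2 fold change was 3.87, with a median SE of 0.96, and the libraries of the 2 stages did not overlap for 190 rows, against 39.1% of all rows that were higher without overlap. In unsorted L3 cells 162 rows (81%) rose and none fell, against 22.5% and 26.2% of all rows, with a median of 3.33, and 169 rows were higher without overlap, against 35.5% of all rows. Among the next 200 rows by rank 102 (51%) rose in L1 and 58 (29%) in L3.

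Between the larval stages, whole animals and unsorted cells gave medians of opposite sign. In whole animals 67 of 200 rows (33.5%) rose and 2 fell in L3 relative to L1, against 12.4% and 12.5% of all tested rows. The log2 fold change was above 0 for 180 rows, with a median of 1.49, against -0.17 over all rows. This count rests on few libraries. With whole L1 replicate 3 left out it was 13, with whole L3 replicate 2 left out 44, and under scaling by library totals alone 43. All 3 whole L3 libraries lay above both whole L1 libraries for 130 rows, against 28.8% of all tested rows. In unsorted cells no row rose and 2 fell in L3 relative to L1, by edgeR, against 8.96% and 7.61% of all rows. At an unadjusted p under 0.05 there were 29 rows, and no share of all rows was taken at that threshold. DESeq2 called 2 higher and 15 lower (7.5%) in unsorted L3 cells, against 12.7% and 12.1% of all rows it tested. Its share of lower rows was thus below that of all rows. The 2 rows, 542 and 623, were noted after their values were seen. Neither was called without L1 unsorted replicate 1 or L3 unsorted replicate 1, row 542 was also lost without L3 unsorted replicate 2, and row 623 without L1 unsorted replicate 3. The log2 fold change in unsorted cells was below 0 for 142 rows, with a median of -0.58, against -0.09 over all rows. Without overlap 61 of the 200 rows were lower, a share close to the 29.0% of all tested rows.

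Across rows, the L3 to L1 difference in unsorted cells ran alongside that in sorted cells. The log2 ratio of L3 to L1 in GFP-positive cells, a quantity that the rule limited to 3-fold either way, correlated with the L3 over L1 fold change in unsorted cells at r = 0.79 (rho 0.77, 200 rows). With the fold change in whole animals it correlated at r = 0.42 (rho 0.40). Sorted and unsorted cells were dissociated alike and may come from the same suspensions, and the labels do not say. Among the 153 rows with the higher GFP-positive mean in L1, the L3 over L1 fold change was above 0 for 138 in whole animals and for 17 in unsorted cells. Among the 47 with the higher mean in L3 the counts were 42 and 41.

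**Figure D4:**
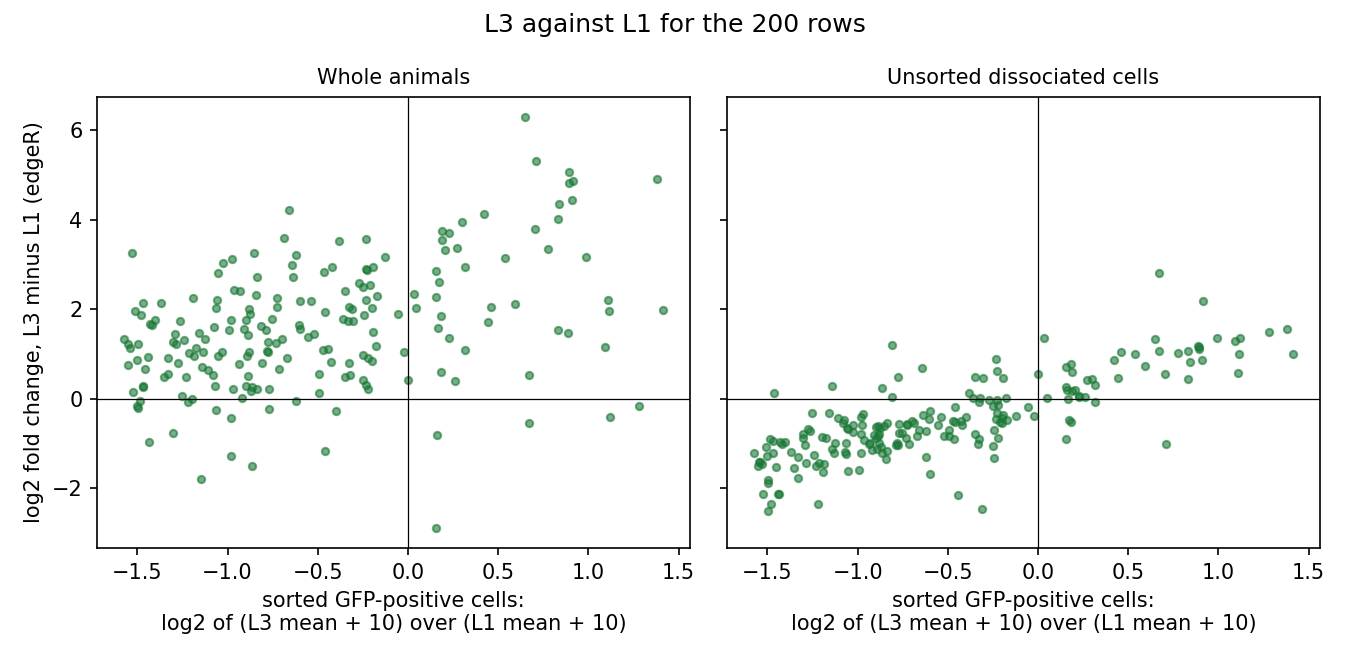
Each point is 1 of the 200 larval intestine rows. The horizontal axis is the log2 ratio of L3 to L1 means in sorted GFP-positive cells, with 10 added to each mean, and the vertical axis the edgeR log2 fold change of L3 over L1 in whole animals (left) or unsorted cells (right); 180 rows lie above 0 on the left and 58 on the right.

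In L3 the larval intestine rows were depleted in dissociated cells relative to whole animals. The median row had 64.2, 190 and 151 normalized counts in the 3 unsorted L3 libraries, against 646, 690 and 640 in the 3 whole L3 libraries. The 2 groups of medians did not overlap, and unsorted replicate 1 was the lowest. Of the 200 rows 124 (62%) fell and 1 rose in unsorted cells, against 11.5% and 7.85% of all tested rows. The median log2 fold change was -2.50, with a median SE of 0.69, against 0.04 over all rows. Every unsorted L3 library lay below every whole L3 library for 164 rows, against 27.5% of all tested rows. Without unsorted L3 replicate 1 the count of lower rows was 74. Among the next 200 rows 108 (54%) fell, with a median of -2.08. In such bulk libraries fewer intestinal cells and less RNA per cell cannot be told apart.

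Rows with a higher enrichment in the sort tended to lower values in this contrast. Across the 200 rows, the log2 enrichment in L3 GFP-positive cells correlated with the fold change of unsorted cells over whole animals at r = -0.39 (rho -0.43). The enrichment in L1, from other libraries, gave r = -0.38 (rho -0.41) with the same fold changes. The rule required both enrichments to be at least 2, so the rows were picked on these values. The L1 correlation uses the same rows and is no separate support. No library entered both an enrichment and the fold change, and the values describe rows, not replicates.

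At the other stages few rows were called in the same contrast by either tool. In L1 no row was called higher or lower in unsorted cells than in whole animals by edgeR, against 3.15% and 6.65% of all tested rows. At an unadjusted p under 0.05 there were 7 rows, and no share of all rows was taken at that threshold. DESeq2 called 2 lower, against 12.4% of all rows it tested, and none higher. Without whole L1 replicate 1, 4 rows were called higher. The median log2 fold change was -0.12. The replicate numbers gave opposite values, with a median log2 difference of -0.82 between the unsorted and whole libraries of replicate 1 and of 0.85 between those of replicate 3. L1 replicates differ in sequencer, and each sequencer holds 1 library a group, so no test within a sequencer was made. In L3 the 3 pairs of equal number gave -3.16, -2.10 and -2.28. In embryo no row was called in either direction by edgeR, against 0.131% and 0.412% of all rows. At an unadjusted p under 0.05 there were 17 rows, again with no share of all rows taken. DESeq2 called 2 lower here too, against 2.53% of all rows it tested, and none higher. The median was -0.06.

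The difference of the dissociation effect between L3 and L1, which had the same protocol, was tested directly. All its libraries are those of the L3 to L1 and the unsorted to whole comparisons above, so the result is not separate from them. The effect was lower in L3 for 12 of the 200 rows (6%) and higher for none, against 0.692% and 2% of all tested rows. The median difference was -2.25 on the log2 scale, with a median SE of 1.06. Single libraries moved the count of 12 widely. Leaving out whole L1 replicate 1 gave 44, and leaving out whole L1 replicate 3 or either unsorted L1 library gave 0. Leaving out whole L3 replicates 1, 2 and 3 gave 3, 2 and 3, and leaving out unsorted L3 replicates 1 and 3 gave 2 and 6.

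Of the rows with a mean of at least 10 CPM in the compared libraries, row 10607 had the highest log2 fold change of whole L3 larvae over whole embryos. It had 0 normalized counts in both whole embryo libraries, 360 and 41.0 in whole L1 libraries and 1776, 1623 and 840.5 in whole L3 libraries. The 3 stages did not overlap. Against a floor of 3 counts over the whole embryo group it was 1556-fold higher in whole L3 larvae, with an edgeR adjusted p of 1.43e-05. The floor is a setting, not a measured bound. In unsorted embryo cells it had 3.97 and 0.562, and its log2 fold change of unsorted L3 over embryo cells was 6.45 ± 1.36 (SE). In unsorted L3 cells it had 134, 414 and 150, below every whole L3 library, and the log2 fold change was -2.61 ± 0.88 (SE, edgeR adjusted p 0.0434). That last call was lost when any 1 of the 6 L3 libraries was left out, with an adjusted p up to 0.148.

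Row 9914 followed, also with 0 in both whole embryo libraries. It had 155 and 2.00 normalized counts in whole L1 libraries and 1763, 955 and 809 in whole L3 libraries. All whole L3 libraries were above both whole L1 libraries, which differed widely from each other. Against the same floor it was 1294-fold higher in whole L3 larvae than in whole embryos, with an edgeR adjusted p of 0.000136. It had 0 in both unsorted embryo libraries, but 16.2, 0 and 3.92 in the embryo GFP-negative ones. In sorted GFP-positive cells it had 1527 and 66.1 in L1 and 2541, 961 and 775 in L3, so its L1 level rests mainly on replicate 1.

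The lowest fold change among rows with that mean belonged to row 15234. It had 565, 539 and 436 normalized counts in whole L3 libraries, against 95.8 and 126 in whole embryo libraries. The 5 libraries gave a log2 fold change of 2.01 ± 0.64 (SE) and an edgeR adjusted p of 0.0107. In embryos this row was lower in unsorted cells, at 15.3 and 23.1, than in whole animals, and it had 5.22 to 10.1 in embryo GFP-positive cells, but the difference between unsorted cells and whole animals did not pass the edgeR test (log2 fold change -2.55 ± 0.70 SE, adjusted p 0.113). DESeq2 called it, with an adjusted p of 0.0133. In unsorted L3 cells it had 276, 542 and 370, a log2 fold change over unsorted embryo cells of 4.20 ± 0.73 (SE, edgeR adjusted p 6.6e-05). The call in whole animals was lost without whole embryo replicate 2, with an edgeR adjusted p of 0.0778.

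Row 3753 was the second lowest. It had 518, 487 and 420 normalized counts in whole L3 libraries, against 106 and 60.0 in whole embryo libraries, which gave a log2 fold change of 2.33 ± 0.61 (SE, edgeR adjusted p 0.00261). Without whole embryo replicate 3 the edgeR adjusted p was 0.052. The groups did not overlap. In whole L1 libraries it had 175 and 53.0, a range that takes in both whole embryo values, and it was not called there (edgeR adjusted p 0.879). In L3 it was one of the depleted rows, with 33.2, 87.3 and 49.4 in unsorted cells against the whole L3 values above, and the log2 fold change was -3.06 ± 0.54 (SE, edgeR adjusted p 0.000427).

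Row 11300 is named because it alone, as its values showed, was called higher in unsorted than in whole L3 animals. It had 203, 1086 and 1445 normalized counts in unsorted L3 libraries, against 49.7, 61.1 and 55.4 in whole L3 libraries. The groups did not overlap, and the log2 fold change was 4.07 ± 0.95 (SE, edgeR adjusted p 0.00476). In L1 its unsorted libraries, at 269 and 904, spanned its whole libraries, at 396 and 526. It was also 1 of the 5 larval intestine rows not called in whole L3 larvae against whole embryos, whose whole embryo libraries had 35.8 and 39.5. The other 4, also noted afterwards, were rows 16499, 9739, 10463 and 7717, with log2 fold changes of 1.12, 0.69, -0.40 and 0.72. Rows 11300 and 16499 were the 2 that fell in whole L3 relative to whole L1 larvae (edgeR adjusted p 0.031 and 0.0403), and neither call held when any 1 of the 5 libraries was left out.

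**Figure D5:**
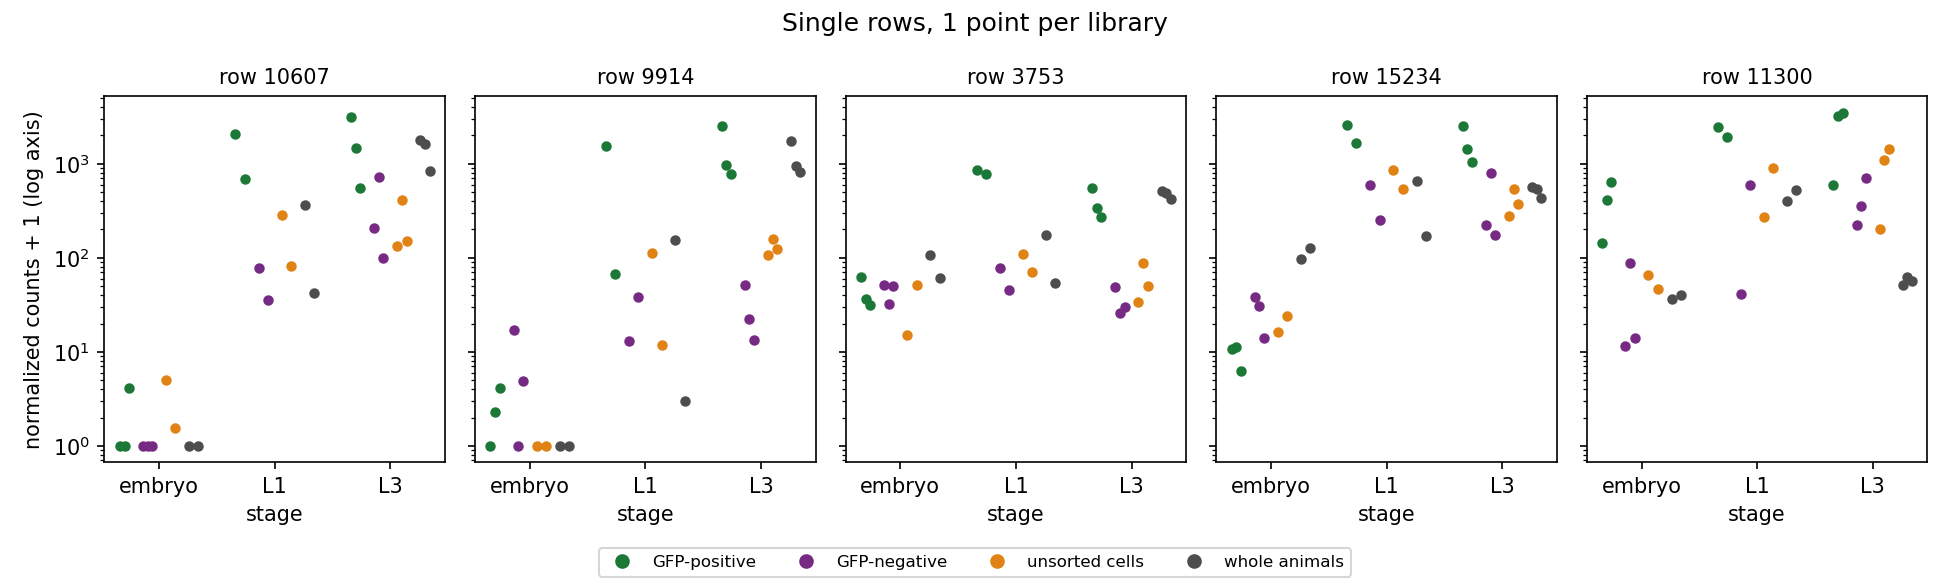
Normalized counts plus 1 (log axis) of 5 single rows in every library, by stage, coloured by fraction, 1 point per library. Rows 10607 and 9914 are at 0 in whole embryos, rows 3753 and 15234 have the smallest rises in whole L3 larvae among rows with a mean of at least 10 CPM, and row 11300 has 203 to 1445 in unsorted L3 cells, above its 49.7 to 61.1 in whole L3 animals.

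The choice of rows itself moved with single libraries. When each sorted library was left out of the rule in turn, 160 to 199 of the 200 rows were chosen again. The lowest values were 160 and 162, without L1 GFP-positive replicates 3 and 1, and leaving out any 1 GFP-negative library kept at least 187. Replicates of single rows varied as well. The highest GFP-positive library was more than 2-fold above the lowest, with 10 added to each, for 94 of the 200 rows in embryos, 80 in L1 larvae and 118 in L3 larvae. In whole L3 animals this held for 42 rows and in unsorted L3 cells for 153.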

How the data were processed

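The deposited raw counts are whole-number counts per row, and the deposited normalized counts are a signal equal to these counts times 1 constant per library (largest relative deviation 5e-07). Per the submitters' processing notes, the genome build was ce11 and the tools included featureCounts 1.6.4 and HISAT2 2.1.0, and also DESeq2 1.28.1 and fastp 0.20.0; no role or order is stated. Counting options are not given in the sources used here, so how reads shared by overlapping or near-identical genes were assigned is unknown. The 4 libraries of L1 replicate 2, of 34 labelled, and the deposited log2-scale table were not analysed here.

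The raw counts of all 30 libraries entered 1 quasi-likelihood fit (edgeR 4.0.16, R 4.3.3) with 1 mean per group and 18 residual degrees of freedom, after filterByExpr with a minimum count of 10 and TMM scaling. The 10 comparisons were two-sided, with Benjamini-Hochberg adjustment over all 16758 tested rows. The SE of a log2 fold change is its size divided by the square root of the F statistic. The procedure was tested on simulated data only for whole L3 against whole embryos and for unsorted against whole L3. DESeq2 1.42.0 was an alternative. The members, comparisons and rules were chosen with earlier results of these data known. Single rows were named as the 2 highest and 2 lowest log2 fold changes of whole L3 over whole embryos among members with a mean of at least 10 CPM there.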

Additional observations from a re-analysis of the deposited data

Results flagged for a closer look

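A test of the difference itself called the effect of dissociation different between the larval stages for some larval intestine rows. In L3 relative to L1 the difference between unsorted cells and whole animals was lower for 12 of the 200 rows and higher for none by edgeR with an adjusted p under 0.05. Of all tested rows 0.692% were called lower and 2% higher. The count of 12 ran from 0 to 44 when each compared library was left out in turn. In L1 the median difference was -0.82 for replicate 1 and 0.85 for replicate 3. Groups of 2 or 3 libraries were too small to look for single libraries far from the others.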

How the results depend on the processing

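Values here are percentages of the larval intestine rows called in a single direction, the one with more calls in the main fit. That direction was lower for L3 cells against whole animals, unsorted L3 against L1 cells and the difference of dissociation. It was higher for the others. L1 and embryo cells against whole animals had no call either way in the main fit, and only higher calls were counted. In L3 cells against whole animals the values ran from 37 to 49.5 when each compared library was left out in turn, against 62 with all. In the same way whole L3 against whole embryos ran from 88.5 to 97.5, whole L1 against whole embryos from 67.5 to 88.5, unsorted L1 against embryo cells from 69 to 78, unsorted L3 against embryo cells from 59.5 to 82 and whole L3 against whole L1 from 6.5 to 34.5. Unsorted L3 against L1 cells ran from 0 to 1.5, L1 cells against whole animals from 0 to 2, embryo cells against whole animals stayed at 0, and the L3 minus L1 difference of dissociation ran from 0 to 22. For the other alternatives the cause of each shift was not tested. The difference of dissociation, 6 as reported, was 10 with the top 100 rows, 3.75 with the top 400, 3.5 under RLE scaling, 3.5 with library totals alone, 2.5 in a fit of the compared groups only, 16.5 without the HiSeq X-ten libraries and 20 with DESeq2. Whole L3 against whole L1, 33.5 as reported, was 22.25 with the top 400 rows and 21.5 with library totals alone. Unsorted L3 against L1 cells, 1 as reported, was 2.75 with the top 400 rows, 0.5 with members chosen with a pseudocount of 1, 4.55 in a fit of the compared groups only and 7.5 with DESeq2. Scaling moved the median of all tested rows in whole L3 against whole embryos to 0.18 under RLE and -0.35 with library totals alone, and the members' median relative to it was 5.54, 5.55 and 5.54 under TMM, RLE and totals. In L1 cells against whole animals the members' median was above 0 with the top 100 rows (0.05), without the HiSeq X-ten libraries (0.73) and without whole L1 replicate 1 (0.76). In embryo cells against whole animals it was above 0 without whole embryo replicate 2 (0.25). With the replicate block, the number of a library taken as a block, the difference of dissociation was 11 and unsorted L3 against L1 cells 2.5, and no other of these percentages moved by over 1.5 times. In L3 deviations of unsorted and whole libraries of equal number correlated at 0.17, 0.08 and 0.18. Replicate 2 there did not correlate best with its own number, while replicates 1 and 3 did. Embryo replicate 2 (0.10) and both L1 replicates (0.086) also correlated best with their own number. As this did not hold for every library, the numbers were not taken as pairs in the main fit. Among the single rows, no called value changed direction, and alternatives lost a call 31 times and gained one 7 times.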

Other observations

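The larval intestine rows were not spread evenly over the tables. Of the 200, 37 (18.5%) stood next to another member, in 21 adjoining pairs with a longest run of 4 rows, while 352 of the 16562 other rows (2.13%) stood next to a member. No source used here gives the order of the rows in the tables, so what neighbouring rows share is not known, and no row was matched to a gene from its place.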
